A study of Medicago sativa with 12 samples.

Results

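The comparison described here is that of alfalfa leaves grown under salt alone with control leaves, over all genes. Its members are the 3 libraries labelled S and the 3 labelled CK, chosen by their labels, which are 6 of the 12 libraries in the series. All plants were alfalfa (Medicago sativa L. cv. zhongmu 1#), a perennial forage legume, raised for 3 weeks on Hoagland nutrient solution before treatment. The CK plants then stayed on that solution, and the S plants received it with 150 mM NaCl. The M and SM plants received 50 µM melatonin without and with the same NaCl. They are used here as a second measure of the salt effect on other libraries. Their libraries also entered the filter on low values and the estimate of spread behind the test of S vs CK. Leaf RNA was sequenced from 3 biological replicates of each group. The sources used here do not give the day or hour at which the leaves were taken, and do not say how many plants went into a library. No group was watered with a non-ionic osmotic control, so ionic and osmotic parts of the treatment cannot be told apart.

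Sodium chloride lowers the water potential around the root and loads the leaf with Na+ and Cl-. Plants are known to answer with abscisic acid, a hormone whose receptors of the PYR/PYL family inhibit type 2C protein phosphatases when it binds, and with compatible solutes such as proline. Salt also bears on photosynthesis, through stomatal closure and through the excess of absorbed light that follows, and antioxidant enzymes remove the reactive oxygen that results.

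The deposited table gives an estimated count and an FPKM value (reads scaled to transcript length and library size) for 164632 gene models on 4 copies of each of 8 chromosomes. The estimated counts of the 6 libraries summed to between 51219691 (S replicate 2) and 57192229 (S replicate 1). Because reads of near-identical copies can be split among gene models, the counts of all models with the same description were added, and such an annotation sum is the main unit here. FPKM values of a sum are the added FPKM of its models, and values are listed in the order of replicates 1 to 3. Errors of log2 fold changes are standard errors (SE, n = 3 libraries a group), with the spread estimated in 1 fit of all 12 libraries. Unless an overlap is stated, the S libraries of each sum said to have risen or fallen lay wholly outside the CK range. In bulk leaf RNA, fewer cells of a type and less RNA per cell cannot be told apart. The leaf label was met by its markers: the summed FPKM of the 22 RuBisCO small chain and chlorophyll a-b binding annotations was 59290.0 to 93160.0 in CK and 79660.0 to 95810.0 in S. The 35 root and nodule annotations, of which 21 were at 0 in all 6 libraries, summed to 102.2 to 194.1 in CK and 352.7 to 419.4 in S.

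Leaf expression under salt differed from the control in both directions. Of the 15402 annotation sums tested, 1004 were higher and 881 lower in S with an adjusted p below 0.05, which is 12.2% of those tested, 6.52% higher and 5.72% lower (edgeR's quasi-likelihood test, p adjusted by Benjamini-Hochberg). The median log2 fold change over all sums was 0.0046, which the scaling of the libraries brings close to 0. Among the sums that passed, the median absolute log2 fold change was 1.58, with 390 above 2 and 273 below -2. The 3 S libraries lay wholly above or below the 3 CK libraries for 1869 of the 1885 sums that passed, against 34.5% of all sums tested. The test compared these same libraries, so the higher share follows from the selection and is a description. Leaving out each of the 6 libraries in turn gave 1071 (without CK replicate 3) to 1697 (without S replicate 2) sums, and 799 of the 1885 passed in all 6 of these fits while 113 passed in none. Without CK replicate 2 the count was 1168 and without S replicate 3 it was 1096, which, like that without CK replicate 3, is less by over 1.5 times. For each sum or model named below that passed, the log2 fold change without a library is given where leaving that library out moved the fold by over 1.5 times. The share of a list that passed follows its counts in parentheses, to be read against the 12.2% over all sums. A description of the hypothetical or uncharacterized kind was carried by 419 of the 1885.

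**Figure D1:**
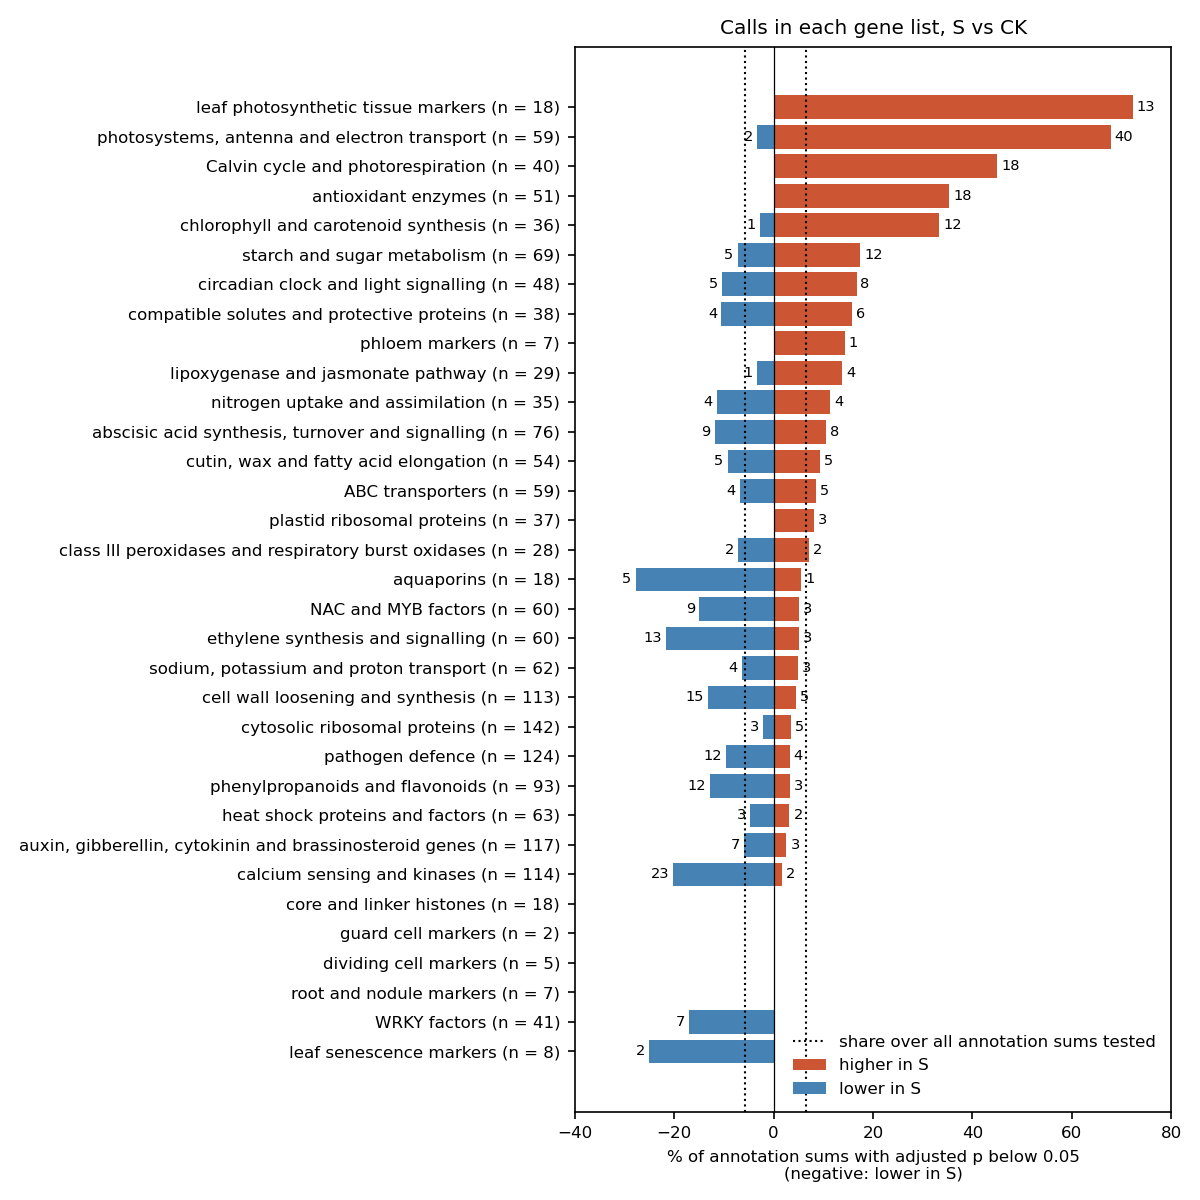
Share of the annotation sums of each gene list that passed an adjusted p below 0.05 in S vs CK (horizontal axis, percent of those tested). Bars to the right are sums higher in S and bars to the left sums lower in S, numbers beside the bars are their counts, n is the number tested, and the dotted lines mark the shares over all sums, 6.52% and 5.72%. Photosystem, Calvin cycle and antioxidant annotations stand to the right, and aquaporin, ethylene and calcium annotations to the left.

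Most annotation sums of the light reactions rose. Of the 59 annotation sums tested for photosystems, antenna and electron transport, 40 rose and 2 fell (71.2%), and the median log2 fold change of the list was 1.79. Photosystem II 22 kDa protein (PsbS), which drives the thermal dissipation of excess light, led the list with FPKM values of 3.7, 6.52 and 7.8 in CK and 441, 204 and 468 in S. Its lowest S library was thus far above its highest CK library (log2 fold change 5.91 ± 0.47, edgeR adjusted p = 0.000197), and the 3 gene models behind it, on copies of chromosome 3, all moved upward. The antenna proteins bind the chlorophyll that harvests light, and among them chlorophyll a-b binding protein P4 had 248, 174 and 46.7 in CK and 3737, 3075 and 3430.5 in S. No CK library came near the S range (log2 fold change 4.41 ± 0.77, edgeR adjusted p = 0.00519). The annotation spelled Chlorophyll a-b binding protein 215 was at 1.58, 2.66 and 0.337 in CK and 70.6, 2.66 and 45.5 in S, and S replicate 2 fell inside the CK range (log2 fold change 4.64 ± 1.17, 5.28 without CK replicate 2 and 3.93 without S replicate 1, edgeR adjusted p = 0.0273). Its adjusted p was above 0.05 without each library other than S replicate 2 (0.0584 to 0.0835).

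The most abundant antenna transcripts were not among those that rose. The annotation with the highest FPKM of all, a chlorophyll a/b binding protein described from Medicago sativa, had 61105, 75534 and 47447 in CK and 48082, 51453 and 47696 in S. The groups overlapped and the difference did not pass the test (log2 fold change -0.37 ± 0.32, edgeR adjusted p = 0.503). Antenna protein AB80, the second in level, was at a mean of 10070.0 in CK and 9977 in S, with a log2 fold change of -0.06 ± 0.57 (edgeR adjusted p = 0.963). Among less abundant members, by contrast, oxygen-evolving enhancer protein 1 rose by 1.30 ± 0.28 on the log2 scale (edgeR adjusted p = 0.0133, and 0.0561 without CK replicate 3) and photosystem I reaction center subunit XI by 2.54 ± 0.33 (edgeR adjusted p = 0.00148). AB80, enhancer protein 1 and subunit XI were picked after their values were seen. The falls were those of the root isozyme of ferredoxin--NADP reductase (log2 fold change -1.06 ± 0.25, edgeR adjusted p = 0.0196) and of thylakoidal processing peptidase 1 (log2 fold change -0.74 ± 0.16, edgeR adjusted p = 0.0129), and the former was above 0.05 without CK replicate 1 or 3 or S replicate 1 (0.0599 to 0.0677).

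**Figure D2:**
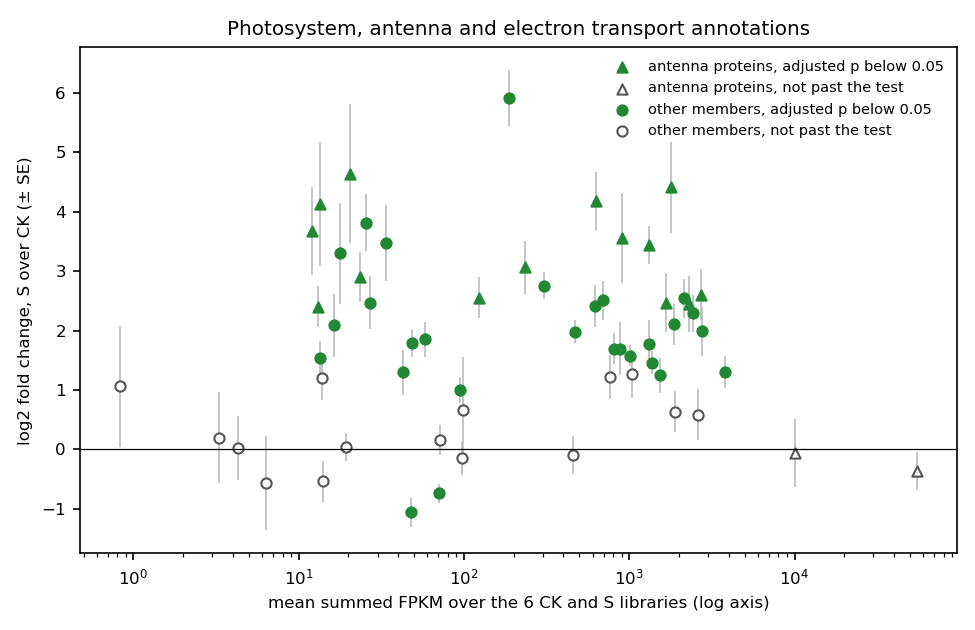
Log2 fold change of S over CK (vertical axis, error bars are SE) against the mean summed FPKM over the 6 libraries (horizontal log axis) for the 59 annotation sums of the photosystem list. Filled symbols passed an adjusted p below 0.05 and triangles are antenna proteins. The antenna triangles at the far right, with mean FPKM of 55220.0 and 10020.0, lie at -0.37 and -0.06, below the filled antenna triangles.

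In carbon fixation and pigment synthesis nearly all sums that passed were higher in S. Of the 40 annotation sums tested for Calvin cycle and photorespiration, 18 rose and 0 fell (45%), with a list median of 0.74. RuBisCO, the enzyme that fixes CO2, is built from large and small chains, and its most abundant small chain annotation was at 5578, 3266 and 2484 in CK and 4477, 2822 and 11532 in S. These groups overlapped (log2 fold change 0.69 ± 0.46, edgeR adjusted p = 0.36). A much scarcer small chain, 3A, chloroplastic-like, had 0.745, 1.76 and 2.51 in CK and 27.1, 8.73 and 44.9 in S and rose (log2 fold change 4.22 ± 0.62, edgeR adjusted p = 0.00231). Cytoplasmic isozyme 1 of fructose-bisphosphate aldolase, an enzyme of sugar phosphate metabolism, rose as well (log2 fold change 4.24 ± 0.95, 4.92 without CK replicate 1 and 3.58 without S replicate 3, edgeR adjusted p = 0.0169), although this adjusted p was above 0.05 without CK replicate 2 or 3 or S replicate 3 (0.0522 to 0.0638). Of the 36 annotation sums tested for chlorophyll and carotenoid synthesis, 12 rose and 1 fell (36.1%). In place of 13, 8 passed without CK replicate 3 or S replicate 3. Phytoene synthase 2, which makes the first carotenoid, had 6.95, 5.54 and 4.44 in CK and 166, 34.2 and 100.3 in S (log2 fold change 4.10 ± 0.59, edgeR adjusted p = 0.00214). The magnesium-protoporphyrin IX monomethyl ester cyclase, a step towards chlorophyll, was at 56.1, 109.7 and 33.1 in CK and 664, 779.6 and 670.1 in S, with no overlap (log2 fold change 3.35 ± 0.44, 3.96 without CK replicate 2, edgeR adjusted p = 0.00147). Magnesium-chelatase subunit ChlD, isoform X1, part of the enzyme that inserts the metal of chlorophyll, was the fall of this list (log2 fold change -1.05 ± 0.25, edgeR adjusted p = 0.0228), and it was above 0.05 without CK replicate 1 or S replicate 2 or 3 (0.065 to 0.0811). Among plastid ribosomal proteins 3 of 37 rose and 0 fell (8.11%). In place of 3, 1 to 5 passed without CK replicate 2 or 3 or S replicate 1 or 3. They included 50S proteins L31, isoform X2 (log2 fold change 1.41 ± 0.30, edgeR adjusted p = 0.0137), and L1 (log2 fold change 0.86 ± 0.20, edgeR adjusted p = 0.02), the latter above 0.05 without each library other than CK replicate 1 or S replicate 1 (0.0503 to 0.0695).

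Starch and sugar genes moved in both directions. Of the 69 annotation sums tested for starch and sugar metabolism, 12 rose and 5 fell (24.6%). In place of 17, 9 to 10 passed without CK replicate 3 or S replicate 3. Granule-bound starch synthase 1, which makes amylose, had 2.54, 27.7 and 11.6 in CK and 268, 149.6 and 501 in S. All S libraries were above the CK range, which itself was wide (log2 fold change 4.41 ± 0.79, 5.46 without CK replicate 2, edgeR adjusted p = 0.00649). Beta-amylase, which releases maltose from starch, was at 2.71, 9.4 and 3.61 in CK and 74, 31.3 and 274 in S and also rose without overlap (log2 fold change 4.54 ± 0.82, 5.32 without CK replicate 2 and 3.27 without S replicate 3, edgeR adjusted p = 0.00661). Sucrose transport protein SUC8, a carrier that loads sucrose into cells, was at 162, 368 and 229 in CK and 11.1, 11.7 and 6.29 in S. This fall held in each of its 3 gene models (log2 fold change -4.75 ± 0.58, edgeR adjusted p = 0.00107). Probable fructokinase-4, of the enzymes that phosphorylate fructose, fell (log2 fold change -2.36 ± 0.66, edgeR adjusted p = 0.0418) with an adjusted p above 0.05 without each library other than S replicate 2 (0.0746 to 0.12). Primers that the study designed for PCR targeted 1 beta-amylase model, MS.gene027467 (chromosome 4.2, 54454352 to 54456612, minus strand), and 1 model of starch synthase 3, MS.gene002957 (chromosome 2.4, 63940631 to 63951999, minus strand), and are shown to tell which copies the primers were meant for. Whether they match other copies was not tested. They are printed 5′ to 3′ as the study gave them, with no base singled out by capitals.
BAM forward: ggtccagcaggagaactcag
BAM reverse: ttcagaatggccagcactcg
SS3 forward: tcaactacgtcaggagggaac
SS3 reverse: ccctcgcaaaaagttttcgtct
Taken alone, the beta-amylase model was at 0.659, 3.53 and 1.15 in CK and 20.6, 3.52 and 89.2 in S, where S replicate 2 lay inside the CK range, and did not pass the test (log2 fold change 4.44 ± 1.16, edgeR adjusted p = 0.0919). The starch synthase 3 model was at 0.695, 1.32 and 0.978 in CK and 7.85, 12.9 and 3.27 in S (log2 fold change 3.02 ± 1.01, edgeR adjusted p = 0.168), while the sum over its 4 models rose by 2.03 on the log2 scale (edgeR adjusted p = 0.00444).

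Nitrogen genes moved in both directions. Of the 35 annotation sums tested for nitrogen uptake and assimilation, 4 rose and 4 fell (22.9%). In place of 8, 5 passed without CK replicate 3 or S replicate 3. Ammonium transporter 1 member 2, a high-affinity carrier in plants, was at 0.383, 0.217 and 0.765 in CK and 7.74, 10.4 and 21.4 in S and the leaf isozyme of glutamine synthetase, which assimilates ammonium in the chloroplast, at 80.7, 101 and 94.1 in CK and 338, 179.5 and 481 in S. Neither pair of groups overlapped, with changes of 4.71 ± 0.6 (edgeR adjusted p = 0.0013) and 1.82 ± 0.35 (edgeR adjusted p = 0.00864). Ammonium transporter 2 fell (log2 fold change -2.01 ± 0.28, edgeR adjusted p = 0.00192), as did the asparagine synthetase described as the root form, which makes the amide that carries nitrogen in legumes (log2 fold change -1.76 ± 0.46, edgeR adjusted p = 0.0322), the latter with an adjusted p above 0.05 without each library other than S replicate 1 or S replicate 2 (0.058 to 0.0947).

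An enzyme of proline synthesis rose and one of proline breakdown fell. Of the 38 annotation sums tested for compatible solutes and protective proteins, 6 rose and 4 fell (26.3%), a list that also holds trehalose, raffinose and late embryogenesis genes. Delta-1-pyrroline-5-carboxylate synthase (P5CS), isoform X2, the rate-limiting enzyme of proline synthesis, had 49.2, 35.5 and 62.1 in CK and 269, 413 and 232 in S. Every S library was far above the CK range (log2 fold change 2.67 ± 0.32, edgeR adjusted p = 0.000972), and the sum passed in every fit that left out 1 library. Proline dehydrogenase, which degrades proline, was at 252, 107 and 128 in CK and 33.7, 7.92 and 28.5 in S. Every S library was below the CK range (log2 fold change -2.79 ± 0.63, edgeR adjusted p = 0.0166), and the adjusted p was above 0.05 without CK replicate 1 or S replicate 3 (0.0504 to 0.0533). The P5CS sum hid a division between its 8 gene models. MS.gene037710 (chromosome 4.3, 78256340 to 78269472) had FPKM values of 0.155, 0.277 and 0.781 in CK and 58.8, 117 and 75.7 in S, and MS.gene73217 (chromosome 4.1, 77897417 to 77909922) had 0.551, 0.271 and 0.88 in CK and 93.4, 83.2 and 42.4 in S. Both were close to silent in CK and rose, by 7.74 ± 0.89 (8.57 without CK replicate 3, edgeR adjusted p = 0.00971) and 7.05 ± 1.39 (edgeR adjusted p = 0.0411). The copy on chromosome 4.4, MS.gene048128, did the same (7.27 ± 1.48, 8.63 without CK replicate 3, edgeR adjusted p = 0.0447). The adjusted p of MS.gene73217 and MS.gene048128 was above 0.05 without each of the 6 libraries (0.0659 to 0.158). MS.gene92539 on chromosome 4.2 was at 0.0493, 0 and 0.169 in CK and 30.7, 45 and 0 in S, with S replicate 3 at 0, and did not pass (edgeR adjusted p = 0.144). The 4 models on chromosome 7 were already on in CK: MS.gene46096 (chromosome 7.2, 41584367 to 41592208) had 12.5, 15.1 and 25.9 in CK and 15.7, 56.3 and 13.2 in S. None of these 4 passed the test, with log2 fold changes of -0.09 to 1.32 (edgeR adjusted p = 0.23 to 0.965).

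**Figure D3:**
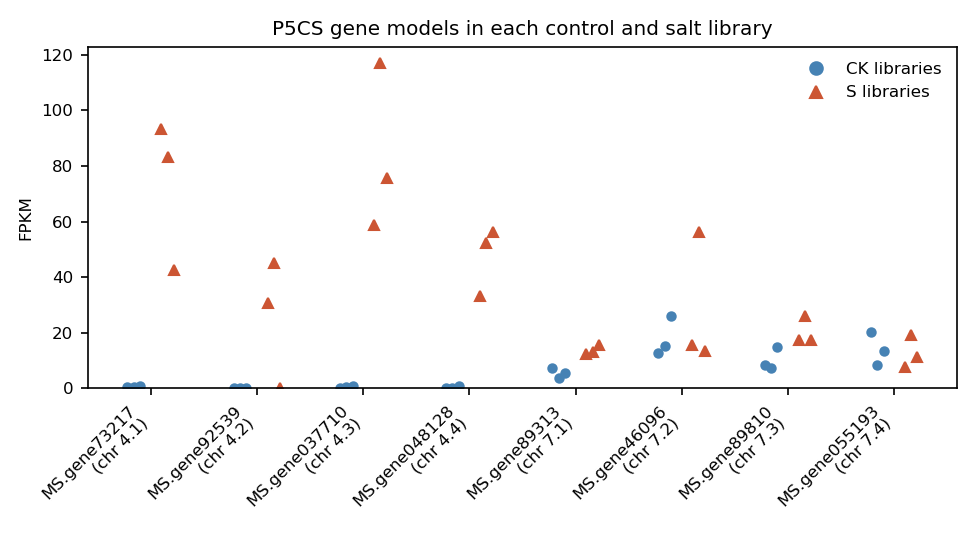
FPKM (vertical axis, linear) of the 8 P5CS gene models in each CK library (circles) and each S library (triangles), ordered by chromosome. The 4 models on chromosome 4 lie below 1 in CK and reach 117 in S, while the 4 on chromosome 7 lie between 3.73 and 25.9 in CK and between 7.73 and 56.3 in S.

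Protective proteins did not move as a block. A Y2K4 dehydrin variant G2 (dehydrins are hydrophilic proteins of drying tissue) was at 7.58, 4.36 and 67.9 in CK and 128, 466 and 204 in S. CK replicate 3 approached the lowest S library (log2 fold change 3.33 ± 0.92, 5.41 without CK replicate 3 and 2.64 without S replicate 2, edgeR adjusted p = 0.0385), and the adjusted p was above 0.05 without each library other than CK replicate 3 or S replicate 1 (0.0687 to 0.0993). The most abundant dehydrin annotation, dehydrin b, had 3039, 3062 and 3722 in CK and 1560.0, 2575 and 1914 in S, lower in every S library without passing the test (log2 fold change -0.73 ± 0.25, edgeR adjusted p = 0.0784). Galactinol synthase, which opens raffinose synthesis, was at 3.69, 0.992 and 12.4 in CK and 5.44, 49.1 and 10.6 in S, with S replicate 2 high and the others inside the CK range (log2 fold change 1.93 ± 0.93, edgeR adjusted p = 0.2). Trehalose-phosphate synthase 7 fell in all libraries, from 64.8 ± 7.48 to 25.4 ± 3.46 FPKM (mean ± SD, n = 3; log2 fold change -1.39 ± 0.19, edgeR adjusted p = 0.00188).

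Abscisic acid (ABA) genes showed opposite moves at neighbouring steps. Of the 76 annotation sums tested for abscisic acid synthesis, turnover and signalling, 8 rose and 9 fell (22.4%). In place of 17, 10 to 11 passed without CK replicate 2 or 3 or S replicate 3. Synthesis was represented by 9-cis-epoxycarotenoid dioxygenase (NCED), the enzyme that cleaves carotenoids towards ABA. Its most abundant annotation was scarce, at 0.222, 0.492 and 0.476 in CK and 12.6, 2.1 and 5.04 in S, yet every S library was above every CK library (log2 fold change 4.0 ± 0.69, 3.10 without S replicate 1, edgeR adjusted p = 0.00511). ABA 8'-hydroxylase 4, which inactivates the hormone, was at 23.5, 170.1 and 106 in CK and 9.15, 1.87 and 16.8 in S. It fell (log2 fold change -3.60 ± 1.03, -2.95 without CK replicate 2 and -4.38 without S replicate 3, edgeR adjusted p = 0.045) with an adjusted p above 0.05 without each library other than CK replicate 1 (0.0667 to 0.125). The receptor PYL4 had the deepest fall of the list, with 123.0, 119.9 and 179 in CK and 1.62, 5.66 and 1.05 in S. All S libraries lay far below the CK range (log2 fold change -5.68 ± 0.64, -6.68 without S replicate 2, edgeR adjusted p = 0.000751), and all 14 of its tested gene models were lower in S. Protein phosphatases 2C are the proteins that such receptors inhibit, and number 51 was at 4.74, 5.56 and 26.3 in CK and 151, 206 and 200.2 in S. CK replicate 3 was the highest control, and still well under the S range (log2 fold change 3.92 ± 0.65, 5.10 without CK replicate 3, edgeR adjusted p = 0.00421). Number 24 rose too, from 29.7 ± 12.7 to 129 ± 15.6 FPKM (mean ± SD, n = 3; log2 fold change 2.11 ± 0.36, edgeR adjusted p = 0.0047).

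The study's PCR primers for this pathway were designed for MS.gene34924 (chromosome 4.1, 16205484 to 16207310, minus strand) for NCED and for MS.gene052795 (chromosome 4.4, 86285077 to 86285733, plus strand) for PYL4, and they are shown because both sums they belong to changed.
NCED forward: cggtaccagaacaacccgt
NCED reverse: actggctcgaacattgggtt
PYL4 forward: tccctccacagagggtgact
PYL4 reverse: gctgtgtaatgttctctgcgg
The NCED model alone was at 0.0691, 0.181 and 0.2 in CK and 8.1, 0.864 and 1.81 in S and the PYL4 model at 9.16, 2.55 and 8.4 in CK and 0, 0.53 and 0.0437 in S. Their groups did not overlap, but as single models neither passed the test (log2 fold change 4.59 ± 1.04, edgeR adjusted p = 0.0619, and log2 fold change -5.01 ± 1.60, edgeR adjusted p = 0.155).

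Ion transporters passed the test about as often as the whole table. Of the 62 annotation sums tested for sodium, potassium and proton transport, 3 rose and 4 fell (11.3%). In place of 7, 2 to 4 passed without CK replicate 1 or 3 or S replicate 1 or 3. The list also takes in the calcium pump ATPase 9. It shares 13 annotations, tested or not, with the list for calcium sensing and kinases, so the counts of these lists are not separate. No sodium transporter HKT annotation was among those tested, and the most abundant sodium/hydrogen exchanger, number 6, had 20.1, 15.5 and 22 in CK and 9.39, 14.1 and 10.9 in S. Every S library was below the CK range, but the difference did not pass (log2 fold change -0.77 ± 0.25, edgeR adjusted p = 0.0655). The plasma membrane proton pumps set up the gradient that drives ion exchange, and ATPase 11 (log2 fold change 1.52 ± 0.41, edgeR adjusted p = 0.0372) and ATPase 4 isoform X1 (log2 fold change 1.22 ± 0.29, edgeR adjusted p = 0.0204) rose. Potassium transporter 1 was at 13.7, 15 and 8.57 in CK and 0.846, 0.723 and 2.32 in S and fell without overlap (log2 fold change -3.27 ± 0.53, -3.95 without S replicate 3, edgeR adjusted p = 0.00391). The calcium pump ATPase 9 also fell (log2 fold change -1.97 ± 0.46, edgeR adjusted p = 0.0196). Above 0.05 were the adjusted p of ATPase 11 without each library other than S replicate 2 (0.065 to 0.121), ATPase 4 without CK replicate 1 or 3 or S replicate 3 (0.0665 to 0.0728) and ATPase 9 without CK replicate 1 or 3 or S replicate 3 (0.0501 to 0.0756).

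Water channels fell more than they rose. Of the 18 annotation sums tested for aquaporins, 1 rose and 5 fell (33.3%). In place of 6, 3 passed without CK replicate 3 or S replicate 1, 2 or 3. The tonoplast-type aquaporin, which passes water between vacuole and cytosol, had 1305, 1142 and 1112 in CK and 83.7, 53.8 and 251 in S (log2 fold change -3.24 ± 0.68, -4.15 without S replicate 3, edgeR adjusted p = 0.0126). Aquaporin TIP2-1 was at 57.9, 1.37 and 21.6 in CK and 0.774, 0.882 and 2.49 in S, where CK replicate 2 lay within the S range (log2 fold change -4.27 ± 1.14, -2.97 without CK replicate 1 and -4.99 without S replicate 3, edgeR adjusted p = 0.0338). Its adjusted p was above 0.05 without each library other than CK replicate 2 (0.0614 to 0.111). The NIP-type aquaporin went the other way, at 17.1, 11.2 and 10.7 in CK and 83.7, 79.8 and 125 in S (log2 fold change 2.85 ± 0.40, edgeR adjusted p = 0.00192).

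All antioxidant annotation sums that passed were higher in S. Of the 51 annotation sums tested for antioxidant enzymes, 18 rose and 0 fell (35.3%). The list median was 0.61, and 19 of the 51 had a negative log2 fold change. As single gene models 11 of 237 rose and 2 fell, where 0.997% of all models tested rose and 0.542% fell. Both falls were of models described as probable glutathione S-transferase, a family that joins glutathione to other molecules, which are named here after their values were seen. MS.gene048103 was at 13.1, 12.7 and 19.2 in CK and 1.32, 2.34 and 1.07 in S (log2 fold change -3.19 ± 0.51, edgeR adjusted p = 0.0219). MS.gene73236 was at 28.9, 15.9 and 17.4 in CK and 4.37, 1.93 and 1.31 in S (log2 fold change -3.0 ± 0.54, -3.66 without S replicate 1, edgeR adjusted p = 0.031). Their sum did not pass (log2 fold change -0.56, edgeR adjusted p = 0.375). Both models were above 0.05 without CK replicate 2 or 3 or S replicate 3, among others (up to 0.0842). Chloroplastic Cu-Zn superoxide dismutase, which converts superoxide to hydrogen peroxide, was at 16.1, 50 and 39.7 in CK and 138, 155 and 289 in S (log2 fold change 2.42 ± 0.49, edgeR adjusted p = 0.0107). The more abundant annotation superoxide dismutase [Cu-Zn] had 42.6, 181 and 87.5 in CK and 257, 279 and 228 in S, above the CK range in S but short of the threshold (log2 fold change 1.25 ± 0.40, edgeR adjusted p = 0.0645). Peroxiredoxin Q, a plastid thiol peroxidase, rose (log2 fold change 2.90 ± 0.80, 3.69 without CK replicate 1, edgeR adjusted p = 0.0394), with an adjusted p above 0.05 without each library other than CK replicate 1 or S replicate 2 (0.0918 to 0.114). Catalase-4 did not differ beyond its spread, at 1159, 1166 and 1189 in CK and 949, 1129.8 and 1177 in S (log2 fold change -0.15 ± 0.18, edgeR adjusted p = 0.648). Of the 28 class III peroxidases and respiratory burst oxidases tested, 2 rose and 2 fell (14.3%). In place of 4, 2 passed without CK replicate 2 or 3. Peroxidase 42 was at 286, 488 and 236 in CK and 1434, 1339.7 and 3014 in S (log2 fold change 2.47 ± 0.47, edgeR adjusted p = 0.00795). Peroxidase1B was at 90.9, 118 and 98.4 in CK and 33.2, 13.3 and 23 in S (log2 fold change -2.19 ± 0.37, edgeR adjusted p = 0.00465). The sum described as putative peroxidase, Acid phosphatase rose (log2 fold change 4.5 ± 1.01, edgeR adjusted p = 0.0166) and cationic peroxidase 2 fell (log2 fold change -2.77 ± 0.74, edgeR adjusted p = 0.0354). The adjusted p was above 0.05 for the former without CK replicate 2 or 3 (0.0553 to 0.0566) and the latter without each of the 6 libraries (0.0554 to 0.098).

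Ethylene genes fell more than they rose. Of the 60 annotation sums tested for ethylene synthesis and signalling, 3 rose and 13 fell (26.7%), with a list median of -0.66. In place of 16, 10 passed without S replicate 3. The list consists mostly of transcription factors of the ERF family. ERF061 was at 42.4, 36 and 46.2 in CK and 5.03, 6.9 and 3.57 in S, with no overlap (log2 fold change -3.03 ± 0.44, edgeR adjusted p = 0.00214). ERF026 ranged widely within CK, at 17.1, 3.64 and 72.4 in CK and 0.74, 3.48 and 2.77 in S (log2 fold change -3.66 ± 0.96, -2.14 without CK replicate 3, edgeR adjusted p = 0.0321), and was above 0.05 without each library other than CK replicate 1 or CK replicate 2 (0.0551 to 0.125). RAP2-2 (log2 fold change 1.5 ± 0.25, edgeR adjusted p = 0.00434) and RAP2-7 isoform X2 (log2 fold change 1.14 ± 0.22, edgeR adjusted p = 0.00796) rose. EIN3-binding F-box protein 1 (EBF1), which targets the ethylene-activated factor EIN3 for degradation, is 1 of the 2 primer genes that passed as a single model, and its primers are shown for that reason. They were designed for MS.gene015986 (chromosome 1.4, 8539642 to 8541558, minus strand).
EBF1 forward: tgtgtgcgatctccgattcc
EBF1 reverse: tagtcccaaaagggtgtggc
That model had 49.3, 63.9 and 53.6 in CK and 20.3, 12.1 and 13.2 in S (log2 fold change -1.84 ± 0.33, edgeR adjusted p = 0.0294), and its call was lost without each library other than S replicate 1 (edgeR adjusted p up to 0.0932).

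In the jasmonate list 4 of 29 annotation sums rose and 1 fell (17.2%). In place of 5, 3 passed without CK replicate 3 or S replicate 1. Linoleate 13S-lipoxygenase 2-1, a plastid enzyme at the entry of jasmonate synthesis, was at 0.337, 2.78 and 0.429 in CK and 118, 21.5 and 78 in S (log2 fold change 5.89 ± 1.19, 7.53 without CK replicate 2, edgeR adjusted p = 0.0104). Its isoform X1 rose likewise (log2 fold change 4.11 ± 0.88, 4.97 without CK replicate 1 and 3.46 without S replicate 1, edgeR adjusted p = 0.0137), and 12-oxophytodienoate reductase 2 fell (log2 fold change -3.0 ± 0.68, -2.29 without CK replicate 2 and -3.95 without S replicate 3, edgeR adjusted p = 0.0172). Above 0.05 were the isoform without CK replicate 2 or 3 (0.0504 to 0.0576) and the reductase without CK replicate 2 or S replicate 1 (0.055 to 0.0597). Among 117 annotation sums for auxin, gibberellin, cytokinin and brassinosteroid, 3 rose and 7 fell (8.55%), fewer than the 12.2% over all sums. In place of 10, 5 to 6 passed without CK replicate 1, 2 or 3 or S replicate 2 or 3. Two-component response regulator ARR5, a cytokinin-induced repressor of cytokinin signalling in Arabidopsis, was at 10.3, 7.38 and 8.8 in CK and 1.04, 1.16 and 1.37 in S (log2 fold change -2.91 ± 0.58, edgeR adjusted p = 0.00981). Gibberellin-regulated protein 1 was even in CK and fell to varying depths in S, at 673, 660.4 and 677 in CK and 40, 13 and 142 in S (log2 fold change -3.41 ± 0.90, -4.70 without S replicate 3, edgeR adjusted p = 0.0333). Auxin-induced in root cultures protein 12 (log2 fold change 1.86 ± 0.34, edgeR adjusted p = 0.00716) and auxin response factor 3 (log2 fold change 1.47 ± 0.41, edgeR adjusted p = 0.0422) rose. The adjusted p was above 0.05 for gibberellin-regulated protein 1 without each library other than S replicate 3 (0.0626 to 0.0957) and auxin response factor 3 without each library other than S replicate 1 (0.056 to 0.129).

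WRKY transcription factors act in defence and stress signalling, and those that passed were lower in S. Of the 41 annotation sums tested for WRKY factors, 0 rose and 7 fell (17.1%), and the list median was -1.02. In place of 7, 3 to 4 passed without CK replicate 2 or 3 or S replicate 2. WRKY6 was at 116, 164 and 131 in CK and 19.4, 25.9 and 5.91 in S, without overlap (log2 fold change -3.04 ± 0.53, edgeR adjusted p = 0.00535). WRKY65 isoform X1 was near 0 in every S library, at 11.5, 24.5 and 14.6 in CK and 0, 0.53 and 0.587 in S (log2 fold change -5.48 ± 1.47, -4.89 without S replicate 1, edgeR adjusted p = 0.0348), and was above 0.05 without each of the 6 libraries (0.0572 to 0.0873). Of 60 NAC and MYB factors 3 rose and 9 fell (20.0%). In place of 12, 6 passed without CK replicate 3 or S replicate 3. MYB48 was at 22.2, 50.1 and 32.2 in CK and 216, 194 and 234 in S (log2 fold change 2.58 ± 0.37, edgeR adjusted p = 0.00207). MYB65 rose less (log2 fold change 1.08 ± 0.21, edgeR adjusted p = 0.0088). NAC transcription factor 47 had 184, 201 and 211 in CK and 38, 72 and 55.9 in S (log2 fold change -1.88 ± 0.31, edgeR adjusted p = 0.00418). MYB13 fell (log2 fold change -1.71 ± 0.42, edgeR adjusted p = 0.0254) but was above 0.05 without each library other than CK replicate 1 or S replicate 1 (0.064 to 0.0851).

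Calcium sensors and kinases that passed were mostly lower in S. Of the 114 annotation sums tested for calcium sensing and kinases, 2 rose and 23 fell (21.9%), a list median of -0.50. In place of 25, 11 to 16 passed without CK replicate 1, 2 or 3 or S replicate 3. Calmodulin-binding protein 60 F isoform X1 was at 4.46, 7.08 and 20.3 in CK and 0.506, 0.418 and 0.13 in S (log2 fold change -4.90 ± 0.77, -4.08 without CK replicate 3, edgeR adjusted p = 0.00329). Calcineurin B-like protein 7 isoform X2, a calcium sensor, was not counted in S replicates 2 and 3, at 17.6, 9.26 and 8.92 in CK and 0.261, 0 and 0 in S (log2 fold change -7.02 ± 1.80, -11.96 without S replicate 1, edgeR adjusted p = 0.0294). Without S replicate 1 the remaining S libraries were at 0, so that fitted value is no bound. One rise was that of calmodulin-like protein 4, at 25.2, 14.2 and 11.5 in CK and 65.5, 81.1 and 65 in S (log2 fold change 2.0 ± 0.38, edgeR adjusted p = 0.00799). The other was that of CBL-interacting kinase 4 (log2 fold change 2.70 ± 0.66, 3.69 without CK replicate 2, edgeR adjusted p = 0.0245). The call was lost for calcineurin B-like protein 7 without each library other than S replicate 1 (0.057 to 0.0814) and the kinase without CK replicate 3 or S replicate 3 (0.0608 to 0.0888). Of the 124 annotation sums tested for pathogen defence, 4 rose and 12 fell (12.9%), close to the 12.2% over all sums. Class-10 pathogenesis-related protein 1 (PR10), a small protein induced by pathogens, was at 205, 85.3 and 55.5 in CK and 1.59, 2.28 and 1.62 in S (log2 fold change -5.96 ± 0.84, -5.21 without CK replicate 1, edgeR adjusted p = 0.00203), and the 8 tested models behind it were all lower. A second PR10 annotation with 1 model, MSPR10-1, was at 59.8, 12 and 35.8 in CK and 1.12, 0.326 and 0 in S (log2 fold change -6.21 ± 1.43, -5.58 without CK replicate 1 and -7.69 without S replicate 1, edgeR adjusted p = 0.0184), and was above 0.05 without S replicate 2 (0.0556). Defensin-like protein 1 went up, at 238, 293 and 430.4 in CK and 2789, 2489 and 5303 in S (log2 fold change 3.43 ± 0.51, edgeR adjusted p = 0.00256). A thaumatin family protein also rose, at 7.81, 10.3 and 9.14 in CK and 130.5, 85.1 and 318 in S (log2 fold change 4.25 ± 0.77, 3.54 without S replicate 3, edgeR adjusted p = 0.0069).

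Flavonoid genes fell more often than they rose. Of the 93 annotation sums tested for phenylpropanoids and flavonoids, 3 rose and 12 fell (16.1%). In place of 15, 4 to 8 passed without CK replicate 1, 2 or 3 or S replicate 3. Isoflavone reductase, on the way to the pterocarpan phytoalexins of legumes, had 79.1, 86.2 and 30 in CK and 1.81, 0.419 and 0.24 in S (log2 fold change -6.28 ± 1.17, -7.49 without S replicate 1, edgeR adjusted p = 0.00765). Chalcone synthase 4, the first committed enzyme of flavonoids, was at 15.1, 9.31 and 11.4 in CK and 0.323, 0.0692 and 0 in S (log2 fold change -6.50 ± 1.74, -8.40 without S replicate 1, edgeR adjusted p = 0.0346). Anthocyanidin 3-O-glucoside 2''-O-glucosyltransferase rose (log2 fold change 1.42 ± 0.29, edgeR adjusted p = 0.0111). The adjusted p of chalcone synthase 4 was above 0.05 without each library other than S replicate 1 (0.0632 to 0.0931).

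Genes of the cell wall were led by deep falls of wall-loosening enzymes. Of the 113 annotation sums tested for cell wall loosening and synthesis, 5 rose and 15 fell (17.7%). In place of 20, 11 to 13 passed without CK replicate 1, 2 or 3 or S replicate 1. Xyloglucan endotransglucosylase/hydrolases (XTH) cut and rejoin the xyloglucan that tethers cellulose. XTH2 was at 2378, 2459.7 and 1552 in CK and 19.7, 35.9 and 171 in S (log2 fold change -4.86 ± 0.84, -6.30 without S replicate 3, edgeR adjusted p = 0.005). XTH23 was at 1383, 1743 and 1460.3 in CK and 98.9, 51.2 and 16.6 in S (log2 fold change -4.83 ± 0.70, -5.53 without S replicate 1, edgeR adjusted p = 0.00229). All 10 tested models of XTH2 and all 18 of XTH23 were lower in S. Cellulose synthase A catalytic subunit 3 went from a narrow low range to a narrow high one, at 3.24, 7.64 and 6.92 in CK and 48, 54.1 and 51.3 in S (log2 fold change 3.25 ± 0.31, edgeR adjusted p = 0.000378), and extensin-3, a wall glycoprotein, rose (log2 fold change 3.58 ± 0.70, edgeR adjusted p = 0.00906). In the cutin and wax list 5 of 54 rose and 5 fell (18.5%). In place of 10, 2 to 4 passed without CK replicate 1, 2 or 3 or S replicate 3. 3-Ketoacyl-CoA synthase 12, of the family that elongates fatty acids, was at 77.1, 139.9 and 164 in CK and 4.54, 29.1 and 5.93 in S (log2 fold change -3.29 ± 0.72, -4.66 without S replicate 2, edgeR adjusted p = 0.015). GDSL esterase/lipase 5 fell too (log2 fold change -2.79 ± 0.76, -3.38 without S replicate 1, edgeR adjusted p = 0.0375). Non-specific lipid-transfer protein 4 was abundant and uneven in S, at 210.5, 537 and 359 in CK and 2583, 674 and 4734 in S (log2 fold change 2.81 ± 0.64, 2.10 without S replicate 3, edgeR adjusted p = 0.0175). The lipid-transfer protein-like At5g64080 isoform X2 rose from a low level (log2 fold change 2.58 ± 0.69, edgeR adjusted p = 0.0358). In this list the adjusted p was above 0.05 for synthase 12 without S replicate 3 (0.0547), the lipase without each library other than CK replicate 2 or S replicate 1 (0.0715 to 0.122), transfer protein 4 without CK replicate 1 or 3 or S replicate 3 (0.0611 to 0.0643) and the At5g64080-like protein without each library other than S replicate 2 (0.0611 to 0.12).

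Among 59 ABC transporters 5 rose and 4 fell (15.3%, against 12.2% over all sums). Member 1 of the G family was at 18.9, 28 and 24.1 in CK and 2.1, 1.4 and 3.01 in S (log2 fold change -3.48 ± 0.32, edgeR adjusted p = 0.000332). B family member 11 isoform X1 fell (log2 fold change -4.73 ± 1.31, -3.88 without CK replicate 1 and -6.53 without S replicate 1, edgeR adjusted p = 0.04), the latter above 0.05 without each library other than S replicate 1 (0.0531 to 0.124). G family member 7 (log2 fold change 1.64 ± 0.32, edgeR adjusted p = 0.00906) and the plastid D family member 2 (log2 fold change 1.56 ± 0.21, edgeR adjusted p = 0.00174) rose.

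Clock and light-signalling genes differed between the groups, and the hour of harvest is not given in the sources used here. Of the 48 annotation sums tested for circadian clock and light signalling, 8 rose and 5 fell (27.1%). In place of 13, 6 to 8 passed without CK replicate 1, 2 or 3 or S replicate 1 or 3. REVEILLE 1, a morning-phased MYB factor in Arabidopsis, was at 2.14, 0.618 and 0.432 in CK and 22.9, 5.14 and 76.9 in S (log2 fold change 5.01 ± 1.07, 6.05 without CK replicate 1 and 3.69 without S replicate 3, edgeR adjusted p = 0.0137). REVEILLE 7 isoform X1 was at 2.39, 6.19 and 5.05 in CK and 43.7, 70.4 and 34 in S (log2 fold change 3.40 ± 0.74, edgeR adjusted p = 0.0148). Both were higher in all S libraries. The light-signalling factor PIF3 (log2 fold change -1.32 ± 0.23, edgeR adjusted p = 0.0047) and the photoreceptor phytochrome A (log2 fold change -1.30 ± 0.36, edgeR adjusted p = 0.0399) fell. Above 0.05 were REVEILLE 1 without CK replicate 2 or 3 (0.0534 to 0.0561), REVEILLE 7 without CK replicate 1 or 3 (0.0536 to 0.0538) and phytochrome A without each library other than CK replicate 3 or S replicate 2 (0.088 to 0.127). The part of these genes in the changes of the photosynthesis and starch lists was not tested.

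Lists of cytosolic ribosomal proteins, histones and heat shock proteins passed the test less often than the whole table. Of 142 cytosolic ribosomal proteins 5 rose and 3 fell (5.63%), with a list median of 0.15. Their log2 fold changes were positive for 96 and negative for 45. In place of 8, 2 to 3 passed without CK replicate 2 or 3 or S replicate 1 or 3. They included 60S protein L29-1 (log2 fold change 2.66 ± 0.75, 3.77 without CK replicate 1, edgeR adjusted p = 0.0422), 40S protein S8 (log2 fold change 1.80 ± 0.43, edgeR adjusted p = 0.0213), and the abundant L34 (log2 fold change -0.77 ± 0.22, edgeR adjusted p = 0.0431) and L18-3 (log2 fold change -0.63 ± 0.17, edgeR adjusted p = 0.0327). The adjusted p was above 0.05 for L29-1 without each library other than CK replicate 1 or S replicate 2 (0.0873 to 0.134), S8 without CK replicate 2 or 3 or S replicate 3 (0.0612 to 0.0815), L34 without each of the 6 libraries (0.0551 to 0.133) and L18-3 without each library other than CK replicate 1 or S replicate 2 (0.0843 to 0.114). None of 18 histone annotations passed, and the most abundant, histone H1, was at 951, 936 and 1238 in CK and 1056, 712 and 1602 in S (log2 fold change 0.12 ± 0.35, edgeR adjusted p = 0.865). Of 63 heat shock proteins and factors 2 rose and 3 fell (7.94%), a smaller share than over all sums. In place of 5, 3 passed without CK replicate 3 or S replicate 1. A DnaJ-like chaperone described from Medicago sativa was at 1425, 1126 and 1596 in CK and 470.0, 517 and 503 in S (log2 fold change -1.51 ± 0.20, edgeR adjusted p = 0.00157), and heat shock 70 kDa protein 18 fell (log2 fold change -2.01 ± 0.41, edgeR adjusted p = 0.0114). Plastid chaperone ClpB3 isoform X1 (log2 fold change 1.71 ± 0.41, edgeR adjusted p = 0.0217) and a DnaJ-class chaperone (log2 fold change 0.96 ± 0.24, edgeR adjusted p = 0.0267) rose, with adjusted p above 0.05 for ClpB3 without CK replicate 1 or 3 or S replicate 2 (0.0592 to 0.0759) and the DnaJ-class protein without each library other than CK replicate 1 or S replicate 3 (0.0672 to 0.0877).

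Markers of other cell types and of leaf age were followed in the same libraries. The senescence markers summed to 646.9 to 1286.0 FPKM in CK and 302.2 to 532.1 in S, and 2 of 8 fell (25.0%). In place of 2, 0 to 1 passed without CK replicate 1 or 3 or S replicate 1, 2 or 3. These were the stay-green protein (log2 fold change -1.66 ± 0.44, edgeR adjusted p = 0.0348) and pheophorbide a oxygenase (log2 fold change -1.39 ± 0.40, edgeR adjusted p = 0.0433), which both act in chlorophyll breakdown. Their adjusted p was above 0.05 for the former without each library other than CK replicate 2 or S replicate 2 (0.0673 to 0.119) and the latter without each library other than CK replicate 2 (0.0522 to 0.136). Lower values of these markers went with the higher values of the photosystem list, and their part in it was not tested. The phloem markers summed to 207.1 to 280.1 FPKM in CK and 390.9 to 2025.0 in S, with 1 of 9 annotations at 0 in all 6, and 1 of 7 tested rose (14.3%). This was SIEVE ELEMENT OCCLUSION B, a protein of sieve tubes, at 14.6, 17.2 and 16.1 in CK and 1713, 263 and 105 in S (log2 fold change 4.57 ± 0.91, 2.82 without S replicate 1, edgeR adjusted p = 0.00991), with S replicate 1 far above the others. The part of phloem tissue in the other results was not tested. Early nodulin-like protein 2 held most of the root and nodule sum, at 52.2, 94.8 and 173 in CK and 261, 334 and 299.5 in S (log2 fold change 1.46 ± 0.48, edgeR adjusted p = 0.0707), and 0 of 7 annotations of that list passed. In place of 0, 1 passed without CK replicate 3. Of the leaf markers, 13 of 18 tested rose and 0 fell (72.2%). All leaf markers are also in the photosystem list (18 annotations) or the Calvin cycle list (4), so their counts are not separate from those of these lists. Markers of dividing cells summed to 24.36 to 57.74 in CK and 34.71 to 40.31 in S, and those of guard cells to 2.24 to 3.63 and 1.80 to 4.91, and 0 of 5 and 0 of 2 tested passed in edgeR. Their most abundant members, cyclin-B1-2 at 14.9, 14.4 and 23.4 in CK and 18.9, 20.1 and 26.5 in S and FAMA isoform X1 at 2.59, 0.925 and 1.32 in CK and 1.07, 4.17 and 1.38 in S, overlapped between the groups (edgeR adjusted p = 0.57 and 0.719).

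**Figure D4:**
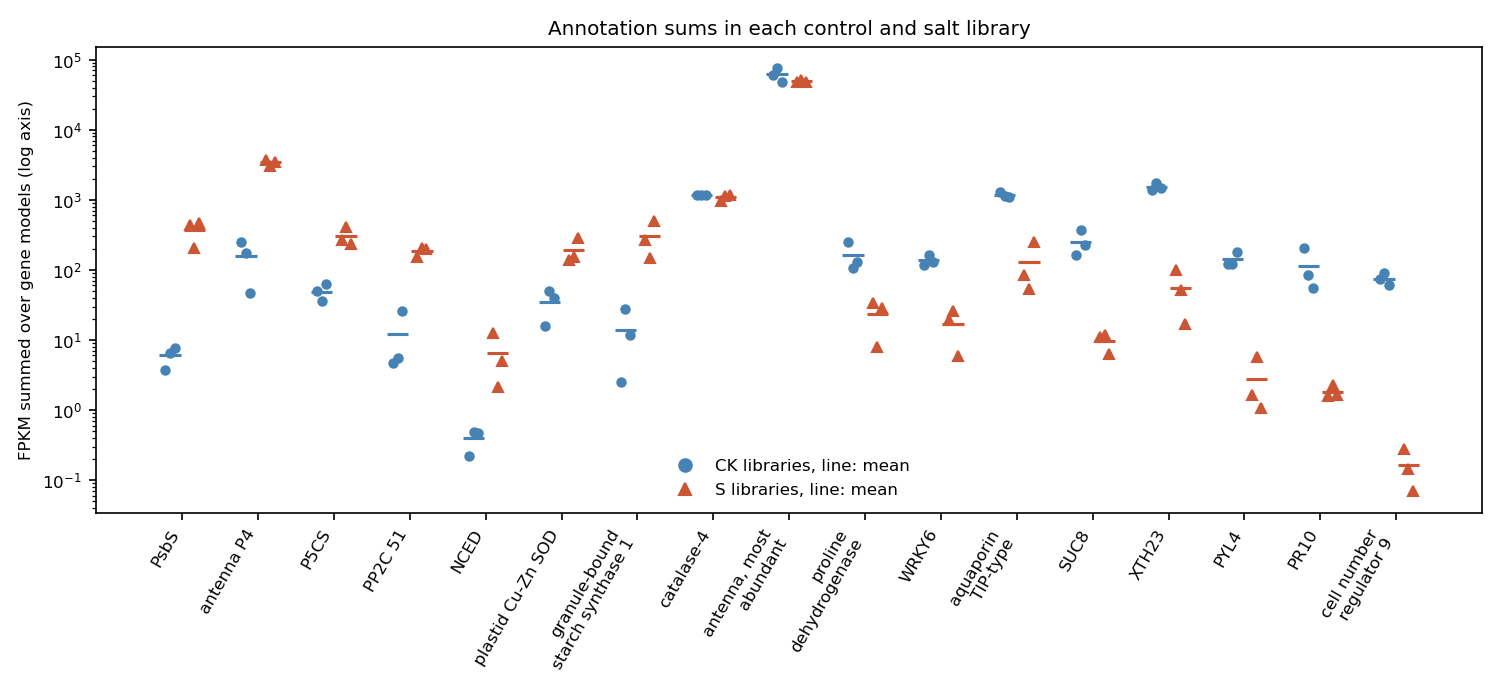
Summed FPKM (vertical log axis) of 17 annotation sums in each CK library (circles) and each S library (triangles), with lines at the group means. The most abundant antenna protein and catalase-4 overlap between the groups, and the other 15 do not.

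Over the whole table, the deepest changes belonged to genes that were close to silent in 1 group. The rule for the largest changes (adjusted p below 0.05, mean FPKM of at least 10, no overlap) was met by 784 rises and 722 falls, and the 8 largest of each were taken, of which 1 and 3 carried uncharacterized names. Thioredoxin-like protein CXXS1 isoform X2, a single model, had 0, 0 and 0 in CK and 59.3, 88.8 and 14.7 in S. It was not counted in any CK library and so was at least 447-fold higher in S against a floor of 3 counts per library, which covers counting error only (edgeR adjusted p = 0.00261). In SM vs M, however, its log2 fold change was 0.86 and did not pass (edgeR adjusted p = 0.653). The sum over the 8 models of thioredoxin-like protein CXXS1 [Medicago truncatula], with no isoform in its name, moved the other way (log2 fold change -1.44 ± 0.33, edgeR adjusted p = 0.0185, and 0.0507 without CK replicate 3), which was looked up after the first was seen. A cytoplasmic leucine--tRNA ligase annotation, likewise 1 model, was at 0.141, 0.0842 and 0 in CK and 61.1, 19.5 and 48.1 in S (log2 fold change 9.02 ± 1.40, 9.90 without CK replicate 1 and 8.43 without CK replicate 3, edgeR adjusted p = 0.00318), against -0.51 in SM vs M (edgeR adjusted p = 0.814). Apyrase, an enzyme that hydrolyses nucleotides, was at 0.141, 0.189 and 0.733 in CK and 61.6, 22.4 and 80.5 in S (log2 fold change 7.24 ± 1.03, 8.25 without CK replicate 3, edgeR adjusted p = 0.00203), and rose in SM vs M as well (4.90, edgeR adjusted p = 0.0142). The falls included cell number regulator 9, named after a maize regulator of cell number, at 72.9, 89.5 and 61.2 in CK and 0.278, 0.142 and 0.0689 in S (log2 fold change -7.77 ± 1.47, -8.89 without S replicate 1, edgeR adjusted p = 0.00798). Acidic glucanase, which cleaves beta-glucans, was at 54.9, 18.8 and 91.6 in CK and 2.04, 0.237 and 0.231 in S (log2 fold change -5.96 ± 1.24, -7.79 without S replicate 1, edgeR adjusted p = 0.0117). LysM domain receptor-like kinase 4 was at 46.5, 9.26 and 6.18 in CK and 0.433, 0.258 and 0.03 in S (log2 fold change -6.19 ± 1.39, -4.75 without CK replicate 1 and -6.84 without S replicate 2, edgeR adjusted p = 0.0164). The kinase was above 0.05 without S replicate 3 (0.0509).

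Several of the largest rises were uneven among the S libraries. Stem 28 kDa glycoprotein was at 1.28, 0.77 and 0.715 in CK and 1515, 4.9 and 148 in S, with S replicate 1 far above the other libraries (log2 fold change 9.15 ± 1.88, 6.30 without S replicate 1, edgeR adjusted p = 0.0113). The putative trypsin inhibitor was at 0.909, 0.476 and 1.22 in CK and 1562, 21.2 and 7.18 in S (log2 fold change 9.10 ± 2.27, 3.90 without S replicate 1, edgeR adjusted p = 0.0263). Dirigent protein 21 was at 0.237, 0.21 and 0.218 in CK and 138, 4.76 and 5.15 in S (log2 fold change 7.51 ± 1.82, 4.30 without S replicate 1, edgeR adjusted p = 0.0233). Cold acclimation responsive protein CAR2 was high in S replicates 1 and 2 but not in the third, at 1.28, 1.32 and 3.05 in CK and 646, 1121 and 3.31 in S (log2 fold change 8.24 ± 2.05, 7.37 without S replicate 2, edgeR adjusted p = 0.0257). Their adjusted p was above 0.05 for the glycoprotein without CK replicate 3 (0.0514), the inhibitor without each library other than S replicate 2 or S replicate 3 (0.0836 to 0.145), the dirigent protein without each library other than S replicate 2 or S replicate 3 (0.0737 to 0.0991) and CAR2 without CK replicate 1, 2 or 3 (0.0789 to 0.0884).

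As single gene models, 508 rose and 276 fell, which is 1.54% of the 50931 tested in edgeR's test, 0.997% higher and 0.542% lower. For 44 of them every library of 1 group had 3 counts or fewer. Leaving out 1 library gave between 100 (without CK replicate 3) and 577 (without S replicate 2) models, and 55 of the 784 passed in all 6 such fits. Of the annotation sums that passed and had over 1 tested model, 79.1% (1337 of 1691) had all tested models in the direction of the sum. Of the sums that did not pass it was 36.7%. Each sum is the total of these same models, so a higher share among sums that passed is favoured by that selection and is a description. The largest rises among models with over 3 counts in every library were those of MS.gene67191 (chromosome 1.2, 57704932 to 57710348) and MS.gene004787 (chromosome 1.4, 61298115 to 61303502), both SIEVE ELEMENT OCCLUSION B. The former was at 0.0285, 0.0717 and 0.0301 in CK and 177, 33.7 and 10.4 in S (log2 fold change 10.58 ± 1.91, 8.82 without S replicate 1, edgeR adjusted p = 0.0308). The latter was at 0.216, 0.296 and 0.722 in CK and 639, 52.2 and 25.7 in S (log2 fold change 9.21 ± 1.83, 9.82 without CK replicate 3 and 6.58 without S replicate 1, edgeR adjusted p = 0.0414). They were followed by the P5CS model MS.gene037710 and by 2 models of 14 kDa proline-rich protein DC2.15, MS.gene072871 (chromosome 3.2, 87429724 to 87430116), at 4.04, 1.09 and 0.973 in CK and 419, 171 and 712 in S (log2 fold change 7.75 ± 1.39, 8.72 without CK replicate 1 and 7.15 without S replicate 3, edgeR adjusted p = 0.0301), and MS.gene32656 (chromosome 3.1, 84592832 to 84593224) (log2 fold change 7.57 ± 1.55, 8.58 without CK replicate 1 and 6.86 without S replicate 3, edgeR adjusted p = 0.0448). The largest falls began with a PYL4 model, MS.gene33451 (chromosome 4.2, 86741188 to 86741844), at 17.6, 42.8 and 42.3 in CK and 0.305, 0.627 and 0.0728 in S (log2 fold change -6.58 ± 0.97, -7.33 without S replicate 2, edgeR adjusted p = 0.0166). CASP-like protein 1D2, MS.gene035283 (chromosome 8.1, 9094730 to 9096556), was at 508, 96.6 and 381 in CK and 1.81, 7.84 and 1.42 in S (log2 fold change -6.43 ± 0.99, -7.61 without S replicate 2, edgeR adjusted p = 0.0196). An LRR receptor-like kinase, MS.gene72470 (chromosome 2.3, 22165438 to 22169812) (log2 fold change -6.41 ± 1.23, -8.52 without S replicate 1, edgeR adjusted p = 0.0373), the SUC8 model MS.gene019924 (chromosome 6.1, 13369909 to 13372116) (log2 fold change -6.35 ± 1.07, -7.88 without S replicate 2, edgeR adjusted p = 0.0267) and a cytochrome b561 and DOMON domain protein, MS.gene042118 (chromosome 8.3, 976677 to 978418) (log2 fold change -6.20 ± 0.85, -7.48 without S replicate 1, edgeR adjusted p = 0.0142), completed the 5. Of these 10 models only MS.gene037710 and MS.gene042118 passed in each fit without 1 library, and the highest adjusted p of the other 8 lay between 0.0571 and 0.157 with losses without CK replicate 3 in all 8.

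Of the 20 gene models with primers, 18 could be tested and 2 passed, while the annotation sums of 9 of the 20 passed. Values are given here for only some of the 20 models, including the 2 that passed. The other model that passed was that of scarecrow-like protein 9, a GRAS family factor, in MS.gene99623 (chromosome 7.1, 39445076 to 39447304, minus strand), and its primers are shown for the same reason as those of EBF1.
SCL9 forward: taccacctgattgcacacct
SCL9 reverse: gcgaaaccgggtacttttcg
It had 2.22, 2.41 and 2.07 in CK and 5.22, 8.37 and 6.1 in S (log2 fold change 1.59 ± 0.30, edgeR adjusted p = 0.038), and lost the call without any 1 of the 6 libraries (edgeR adjusted p up to 0.135). Its sum over 4 models rose by a like amount (log2 fold change 1.60, edgeR adjusted p = 0.00244). The SAUR32 model, an auxin-responsive gene in MS.gene70164 (chromosome 4.1, 7725163 to 7725477, plus strand), was at 3.98, 17.1 and 11 in CK and 83.2, 33.6 and 61 in S (log2 fold change 2.50 ± 0.56, edgeR adjusted p = 0.0608), whereas the sum over its 29 models did not differ (log2 fold change 0.29, edgeR adjusted p = 0.605).

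The salt effect was also measured in the melatonin-treated plants, where the 3 SM and 3 M libraries are shared with neither S nor CK. There 469 annotation sums were higher and 607 lower, 6.99% of those tested in the same edgeR fit (3.05% higher and 3.94% lower). Of the 1885 sums that passed in S vs CK, 1795 (95.2%) had the same direction in SM vs M, against 70.6% of all sums tested, and 649 passed in both with the same direction. The sums that rose in S vs CK had a median log2 fold change of 1.69 there and 0.99 in SM vs M, and those that fell had -1.45 and -0.89. Values selected for passing in S vs CK are larger there by that selection, so this difference in size is a description. The photosystem list had 22 rises and 1 fall in SM vs M, and the antioxidant list 8 rises and 0 falls. PsbS rose by 4.73, P5CS by 2.29 and phosphatase 2C 51 by 6.33 on the log2 scale in SM vs M (edgeR adjusted p = 0.00157, 0.0042 and 0.00332). PYL4 changed by -4.96, proline dehydrogenase by -5.15 and XTH23 by -3.93 (edgeR adjusted p = 0.00367, 0.0039 and 0.0101). SUC8, with -1.43, did not pass there (edgeR adjusted p = 0.117), and the test of the difference between the salt effects did not pass for any annotation sum (0 of 15402 in edgeR's quasi-likelihood test, 1244 at an unadjusted p below 0.05, no other tool run). Among gene models 14 passed it, 0.0275% of those tested, with 0.00982% higher and 0.0177% lower in SM vs M.

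**Figure D5:**
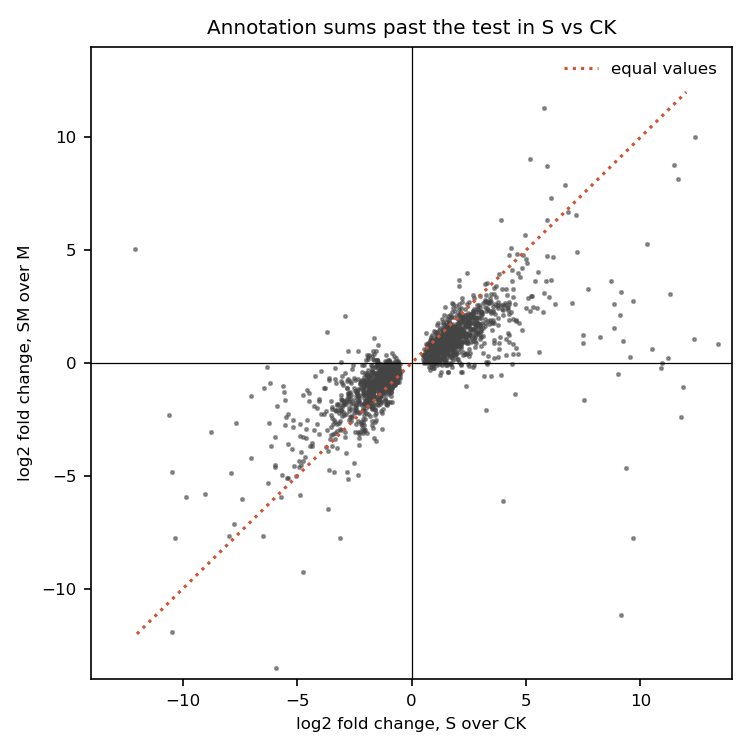
Log2 fold change of SM over M (vertical axis) against that of S over CK (horizontal axis) for the 1885 annotation sums that passed in S vs CK, 1 point each, with a dotted line at equal values. Most points lie to the lower left and upper right, where the 1795 sums of like direction are. For 1627 of the 1885 the absolute log2 fold change is smaller in SM vs M.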

How the data were processed

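Leaf RNA of 3 biological replicates each of CK, M, S and SM plants was sequenced. According to the study's methods, reads were trimmed with Cutadapt, aligned with HISAT2 (2.0.4 in the submitters' processing notes) and assembled with StringTie, and Ballgown gave the FPKM values that the authors deposited beside an estimated count for each gene model. The genome build is not given in the sources used here, so coordinates are those of the table. The estimated counts deposited by the authors are whole numbers, and in CK replicate 1 they include 727, 1203, 860, 1638, 768 and 1011 gene models with 1 to 6 counts, with the even numbers more frequent than the next odd ones. What 1 count stands for is not given in the sources used here. Counting errors taken from these counts may therefore be too small, which was not tested. Of the 164632 gene models, 59002 were never counted in the series and 1788 had no description and entered no annotation sum.

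Counts were summed over gene models with identical descriptions (28065 annotations, 22398 of them with more than 1 model, median 4, largest 1416), so a sum can join different loci with 1 name. Sums and single models were tested where their FPKM averaged 1 or more over the 12 libraries, M and SM included. The tool was edgeR 4.0.16 (TMM scaling, quasi-likelihood test, Benjamini-Hochberg adjustment) in 1 fit of all 12 libraries. Its contrasts were S vs CK, SM vs M and their difference. Standard errors were derived from each log2 fold change and its F value. The design thus departs from the study's own calls, which used DESeq2 with a fold and an unadjusted p. R 4.3.3, limma 3.58.1, DESeq2 1.42.0, Python 3.11.15 and pandas 2.3.3 were used. With 3 against 3 libraries an exact permutation test of a single value cannot go below p = 0.1, so none was used.

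Alternatives were DESeq2's size factors in edgeR, no filter, a minimum mean FPKM of 5, the 6 libraries alone, DESeq2, limma on log2(FPKM + 1), the replicate number as a block, each library left out, and the study's call rule. The members and the 33 gene lists were chosen with earlier results of these data known. The lists' search expressions were corrected after the descriptions had been seen, and those for phloem, root and senescence markers after gene model values had been seen. Named genes were, in each list, at most the 2 rises and 2 falls of largest log2 fold change among sums that passed with a mean FPKM of at least 5 (or, where none passed, the most abundant sum), the 8 largest rises and falls of all sums with a mean FPKM of at least 10 and no overlap, the 5 largest rises and falls of gene models with the same minimum and more than 3 counts in every library, the models with PCR primers, and the most abundant sum of 10 preset enzyme and transporter names. Sums named only as hypothetical or uncharacterized were counted and left unnamed. Of the models with PCR primers, only some are given with their values. Primer sequences are those of the study's supplementary primer list, and none of its values were used. 1 annotation that the rule for named genes takes in is not reported here.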

Additional observations from a re-analysis of the deposited data

Results flagged for a closer look

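The salt effect differed between plants without and with melatonin for 14 of the 50931 gene models tested (edgeR's quasi-likelihood test of the difference, adjusted p below 0.05), of which 5 had a higher and 9 a lower log2 fold change in SM vs M than in S vs CK. In 13 of the 14 all 3 libraries of 1 group were at 0, the group being CK for 4, M for 2, S for 2 and SM for 5. With the replicate number as a block 0 of 50931 passed, and the annotation sums that hold these models differed by at most 1.53 on the log2 scale, with 0 of 15402 sums past the same test.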

How the results depend on the processing

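No named result that passed changed its sign under any alternative run, and for the named annotation sums edgeR with DESeq2's size factors left all 119 verdicts in place. DESeq2 gave an adjusted p for 117 of the 119 and none for the other 2, and among the 117 it added 4 calls and lost 0. Of the 119, limma on log2(FPKM + 1) added 2 and lost 4, dropping the filter lost 6, and the fit of the 6 libraries alone lost 26. Leaving out 1 library lost between 20 (S replicate 2) and 41 (CK replicate 3). The cause of these differences was not tested, and neither was the part of fewer libraries, which leave less to estimate the spread from.

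The counts of annotation sums were 1534 higher and 1466 lower with DESeq2, and 557 lower (713 higher) from the 6 libraries alone. Without 1 library 583 to 941 were higher and 461 to 756 lower. The counts of gene models moved more. They were 207 higher and 106 lower without a filter, 479 lower (679 higher) at a mean FPKM of at least 5, 2651 and 2374 with DESeq2, and 1238 and 1095 with limma. From the 6 libraries alone edgeR called 0 higher and 0 lower, with 7985 models at an unadjusted p below 0.05 where DESeq2 called 5025. Under the study's rule of a fold above 2 or below 0.5 with an unadjusted p, edgeR's fit gave 3969 higher and 3267 lower. Without 1 library 76 to 373 models were higher and 24 to 204 lower.

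Replicate numbers are shared by the groups. The deviations of same-numbered S and CK libraries from their group means correlated by 0.025, 0.01 and -0.008 over annotation sums. Over all sums the numbers thus showed no pairing of the samples, but pairing in only a part of the genes was not tested. With the replicate number as a block, 764 annotation sums were higher and 661 lower, and 108 gene models were higher and 46 lower. For the difference of the salt effects the block left 0 gene models and 0 annotation sums. It lost 22 of the calls on named annotation sums.

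Calls were also counted as gene models in place of annotation sums, to be read against 1.54% of all models tested. They numbered 3 of 35 tested for phloem markers, 0 of 30 for senescence markers and 1 of 191 for ion transport. Compatible solutes had 4 of 113, nitrogen 4 of 110 and jasmonate 2 of 108. For ethylene there were 7 of 235, for the growth hormones 2 of 488 and for WRKY factors 3 of 118. NAC and MYB factors had 4 of 188, calcium 7 of 455 and defence 8 of 463. Cutin and wax had 5 of 169, heat shock 1 of 255 and clock genes 6 of 168. Ribosomal proteins had 0 of 733 (cytosolic) and 5 of 133 (plastid).

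Without 1 library, the calls in a list ranged from 0 to 1 for root markers, 0 to 2 for senescence markers, 2 to 9 for ion transport, 10 to 14 for abscisic acid, 2 to 5 for peroxidases, 8 to 10 for pigment synthesis, 9 to 16 for starch and sugar, 5 to 9 for nitrogen, 3 to 6 for jasmonate, 10 to 16 for ethylene, 5 to 8 for the growth hormones, 3 to 6 for WRKY factors, 6 to 9 for NAC and MYB factors, 11 to 23 for calcium, 4 to 14 for flavonoids, 11 to 15 for the cell wall, 2 to 8 for cutin and wax, 3 to 5 for aquaporins, 3 to 5 for heat shock, 6 to 15 for clock genes, 2 to 7 for cytosolic and 1 to 5 for plastid ribosomal proteins. The photosystem list had 33 to 43 calls and the antioxidant list 12 to 19.

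Depth was similar in all 6 libraries, and genes near 0 in 1 group had fold changes with wide errors. Sums by description can join copies that move apart, as those of P5CS.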
